A study of Felis catus with 25 samples.

Results

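Fibroblasts from the cornea of domestic cats (Felis catus), harvested at day 5, after transforming growth factor beta 1 (TGFb1) and then troglitazone, were compared with the untreated cells from which the culture started. The comparison used 10 of the 25 RNA-seq libraries of the series, chosen by sample title, 5 of each group. The untreated group, FB, was harvested at day 0 and is described as quiescent in the labels, from cells plated at high density on collagen-coated dishes. The day 5 group, Trog, received TGFb1 until day 2 and then, in its place, troglitazone at 7.5 uM for 3 days. Values of 2 further groups of 5 are set beside them. TGFb was harvested after 2 days with TGFb1 at 1 ng/ml, and TrogGW was treated as Trog but received 10 uM GW9662 together with troglitazone. Libraries of 1 group are named biological replicates in the labels. Whether they came from separate cultures or cats is not stated, so the p-values cover only library-to-library spread, which may be technical. FB and Trog differ in time in culture, in TGFb1, in its removal and in troglitazone, and these cannot be told apart here, because no untreated library of day 5 was analysed.

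Corneal stromal fibroblasts arise from keratocytes, the quiescent cells that keep the cornea clear. Under TGFb1 they become myofibroblasts, which build actin stress fibres containing smooth muscle actin and secrete collagen, and which leave scars in a wounded cornea. Troglitazone is a thiazolidinedione, a synthetic ligand of the nuclear receptor PPAR-gamma (encoded by PPARG), which turns on genes of fatty acid uptake and storage in fat cells. GW9662 is an antagonist that binds the same receptor. Thiazolidinediones also bind the mitochondrial pyruvate carrier, which is built from the MPC1 and MPC2 proteins and carries pyruvate into mitochondria.

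FB libraries held 17.5 to 24.2 M counts and Trog libraries 18.2 to 22.6 M. Within each of the FB and Trog groups every pair of libraries correlated at r of at least 0.993 across genes (log2 scale), and between FB and Trog the median r was 0.898. The 10 genes with the most counts took 15.3% ± 0.603 of the counts in FB and 10.9% ± 0.334 in Trog (SD, n = 5). Of the fibroblast markers COL1A1, COL1A2 and FN1 were among the genes with the most counts in FB, and VIM was not analysed here. The sum of 13 fibroblast markers was 91198 to 106904 CPM in FB and 26164 to 31807 CPM in Trog. CPM are the usual depth-scaled counts, here over the library total after TMM scaling, edgeR's correction for a few dominant genes. Of the markers of other cells, KRT3, KRT12 and TP63 of the corneal epithelium and PTPRC, AIF1, TYROBP and CD163 of immune cells had no count in FB or Trog. ADIPOQ, a defining gene of fat cells, also had no count. The summed level of 7 corneal epithelium markers was 8.6 to 11.3 CPM in FB and 4.34 to 6.06 CPM in Trog. Of the 3 tested, 2 rose and 1 fell, each at least 2-fold. That of 11 corneal endothelium markers was 3026 to 3315 CPM in FB and 1995 to 2173 CPM in Trog. For 12 vascular endothelium markers it was 191 to 213 CPM and 166 to 193 CPM. For 8 markers of melanocytes and Schwann cells it was at most 8.95 CPM in FB and 15.3 to 20.1 CPM in Trog. The summed level of 12 immune markers was 11.3 to 14.0 CPM in FB and 33.3 to 40.4 CPM in Trog, most of it from CD68. Each of the 4 tested immune markers rose at least 2-fold, as did 15.4% of all tested genes. For 9 adipocyte markers the sum was 7.93 to 10.9 CPM and 44.8 to 60.4 CPM, most of it in Trog from FABP4. The part of such cells in the results was not tested.

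Most tested genes differed between Trog and FB. Of 10638 genes tested, 8761 (82.4%) changed, of which 4396 rose and 4365 fell, at a Benjamini-Hochberg adjusted p under 0.05 in edgeR's quasi-likelihood test. The median over all tested genes was 0.00 on the log2 scale. This balance depends on the scaling, because TMM centres most log2 fold changes near 0. At least 2-fold, 3156 genes (29.7%) changed, with 1639 (15.4%) higher and 1517 (14.3%) lower. With scaling by library totals alone, which moved the median of all genes by 0.31, 8888 genes changed and 66.1% of them rose, against 50.2% here. In TGFb against FB, 7134 genes (67.1%) changed, and 1394 (13.1% of those tested) changed at least 2-fold. Of the 7134, 48.0% rose, against 16.9% of those called with library totals alone. These comparisons share the FB libraries. A fit that also held the 5 libraries treated with UK-5099, an inhibitor of the pyruvate carrier, called 6838 genes in Trog against FB, and 8790 when replicate 5 of that group was left out. Without that 1 library each named call lost with all 25 libraries was kept, and no list count moved by over 1.5 times. Because 41.3% of all tested genes rose and 41.0% fell, a call alone says little of a gene. The CPM ranges of the 5 FB and 5 Trog libraries did not overlap for 71.8% of tested genes. The counts of each gene list below are to be read against these shares. Counts given with library totals alone are to be read against 5875 higher and 3013 lower of 10638. Counts give the makeup of the RNA pool, so in these bulk cultures fewer cells of a type and less RNA per cell cannot be told apart. Log2 fold changes below are Trog against FB with their standard error (SE) unless another pair is named, means are in CPM with the SD over 5 libraries, and adjusted p-values are from edgeR over all tested genes.

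**Figure D1:**
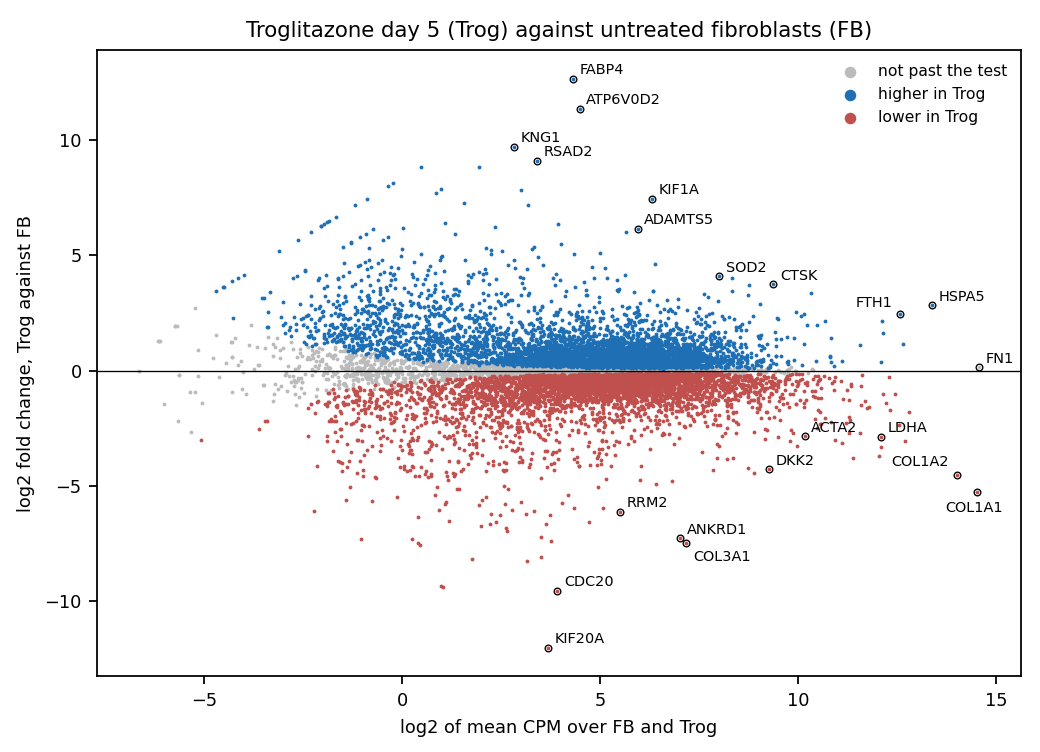
Log2 fold change of each tested gene in Trog against FB (vertical axis) against the log2 of its mean CPM over both groups (horizontal axis); blue genes rose, red genes fell and grey genes did not pass the test. The 4396 risen and 4365 fallen genes lie on both sides of 0, with COL1A1 and COL1A2 at the lower right, HSPA5 and FTH1 at the upper right and FN1 near 0; the fitted changes of genes without counts in a group, such as FABP4 and KIF20A, depend on the fit and are no measure of size.

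The contractile genes that define a myofibroblast were lower in Trog than in the cells before TGFb1. ACTA2, which encodes smooth muscle actin, stood at 2178, 1860.2, 2172, 1914 and 1939 CPM in the FB libraries and at 220.0, 326, 388, 259 and 205 CPM in the Trog libraries. No Trog library came near the lowest FB library. The fall was -2.85 ± 0.37 on the log2 scale (edgeR adjusted p = 6.60e-08). At day 2, ACTA2 was at 9330.0 ± 442 CPM in TGFb, and in TrogGW at day 5 it was at 9.71 ± 11.9 CPM, so Trog lay above TrogGW (log2 fold change 4.85 ± 0.42, edgeR adjusted p = 1.12e-10). Reads of ACTA2 can be shared with the near-identical ACTC1 and ACTG2, so the 3 levels are uncertain. Of the contractile list, 17 of 20 tested members fell and 2 rose, with a median log2 fold change of -2.21. Calponin, CNN1, a stress fibre protein, fell from 139 ± 5.31 to 13.1 ± 1.94 CPM. Tropomyosin 1, TPM1, which runs along actin filaments, fell from 3971 ± 181 to 452 ± 79 CPM. TGFB1I1 (Hic-5), a focal adhesion protein, fell from 208 ± 9.98 to 23 ± 2.31 CPM, and PDLIM7, a scaffold on actin filaments, changed by -2.83 ± 0.08. These 4 had edgeR adjusted p-values of at most 1.70e-17. The members that rose were MYH11, smooth muscle myosin heavy chain (112 ± 5.85 to 165 ± 12.1 CPM, 0.55 ± 0.06), and SYNPO2, an actin bundling protein with low counts (0.551 ± 0.246 to 2.94 ± 1.42 CPM). The list took 1.5% ± 0.0367 of all counts in FB and 0.46% ± 0.0529 in Trog.

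Most collagen transcripts were lower in Trog. COL1A1, a chain of collagen I, was at 47525, 37642, 50758, 42245 and 48076 CPM in FB and at 804, 1045, 1569, 1201 and 1232 CPM in Trog. COL1A2, its partner chain, fell from 31891 ± 1440.2 to 1367 ± 346 CPM. Every Trog library lay far below every FB library for both chains, with log2 fold changes of -5.27 ± 0.22 and -4.54 ± 0.36 (edgeR adjusted p = 5.16e-18 and 5.39e-12). In TGFb, COL1A1 was higher than in FB at 63612 ± 6349 CPM (log2 fold change 0.49 ± 0.18, edgeR adjusted p = 0.0199), while COL1A2, at 38509.7 ± 1834 CPM, did not pass the test (edgeR adjusted p = 0.452). COL3A1, the chain of collagen III, was at 303, 272, 299, 288 and 278 CPM in FB and at 0.489, 1.51, 2.36, 1.74 and 1.72 CPM in Trog. Its fall of 7.51 on the log2 scale was the largest in the list (edgeR adjusted p = 1.02e-23). COL15A1 (901 ± 31 to 40.9 ± 3.0 CPM) and COL5A3, a chain of collagen V (435 ± 13 to 22.1 ± 2.74 CPM), fell in the same way. COL14A1, which binds the surface of collagen fibrils, changed by -3.65 ± 0.09. Altogether 16 of 18 tested collagen genes fell and 2 rose (1 with a minimum count of 50), with a median log2 fold change of -2.21. The list's share of all counts was 10.2% ± 0.51 in FB and 1.61% ± 0.128 in Trog. The exceptions, COL11A1 and COL8A1, are low in FB (means of 0.114 and 0.198 CPM), were at 13.4 and 3.98 CPM in TGFb, and stood at 2.22 and 0.681 CPM in Trog.

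Genes that process, fold and crosslink collagen were lower. Each of the 24 tested members fell, with a median log2 fold change of -1.40, while with library totals alone 22 fell and 1 rose. The lysyl oxidase family, which crosslinks collagen and elastin, was led by LOXL1, at 816, 716, 899, 754 and 868 CPM in FB and 43, 43.7, 46.9, 44.1 and 38.8 CPM in Trog. The groups did not overlap (log2 fold change -4.23 ± 0.08, edgeR adjusted p = 1.14e-24). LOXL2 fell from 1581 ± 25.8 to 187 ± 11.9 CPM although it was at 2538 CPM in TGFb. LOXL3 and LOXL4 changed by -2.31 ± 0.08 and -2.59 ± 0.09. P3H2, a prolyl hydroxylase that modifies collagen chains, changed by -1.82 ± 0.05 (edgeR adjusted p = 4.34e-21).

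Among the matricellular and adhesive glycoproteins, 20 of 29 tested members fell and 6 rose, with a median log2 fold change of -1.41. TGFBI, a secreted adhesion protein whose mutations cause corneal dystrophies, was at 131, 117, 123, 122 and 126 CPM in FB and at 2.67, 4.22, 5.85, 3.59 and 6.67 CPM in Trog. Its groups lay far apart (log2 fold change -4.76 ± 0.16, edgeR adjusted p = 9.26e-20). ELN, elastin, fell from 166 ± 17.7 to 5.43 ± 2.18 CPM after a mean of 842 CPM in TGFb. FBLN5 and EFEMP2, fibulins that bind elastic fibres, fell too, FBLN5 by 1.88 and EFEMP2 by 2.49 on the log2 scale. SPARC, a collagen-binding glycoprotein, fell from 11853 ± 420.2 to 1430.1 ± 220.2 CPM, and THBS1, thrombospondin 1, which can activate latent TGF-beta, from 11139 ± 928 to 3159 ± 607 CPM. The largest edgeR adjusted p of these 5 was 1.18e-12. A few members remained above FB. CILP, a cartilage matrix protein, was at 0.241 ± 0.164 CPM in FB, 62.8 ± 6.08 CPM in TGFb and 9.14 ± 0.621 CPM in Trog, and COMP, another cartilage matrix protein, was at 0.20, 20.1 and 5.81 CPM. LTBP2, a relative of the latent TGF-beta binding proteins, was at 26.4 ± 1.46 CPM in FB and 169 ± 20.5 CPM in Trog (log2 fold change 2.67 ± 0.11, edgeR adjusted p = 4.05e-18), against 864 CPM in TGFb.

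Fibronectin did not follow collagen. FN1, which was named after its values were seen, was at 21980.1, 22048, 20937, 25764 and 24198 CPM in FB and 25556, 22016, 24513, 27503 and 27129.7 CPM in Trog. The groups overlapped, and the log2 fold change of 0.14 ± 0.17 did not pass the test (edgeR adjusted p = 0.459). Its 95% interval ran from -0.22 to 0.50, so a change of either sign within it was not excluded. In TGFb the level was 76468 ± 7570.1 CPM. Of 12 tested fibroblast markers, 6 fell, 2 rose and 4 did not pass the test. Beside FN1 the last were, also named after their values were seen, LUM, the stromal proteoglycan lumican (196 ± 9.34 and 251 ± 56.1 CPM, edgeR adjusted p = 0.0806), FAP, fibroblast activation protein (0.11 ± 0.07, edgeR adjusted p = 0.159), and TWIST1, a mesenchymal transcription factor (0.20 ± 0.09, edgeR adjusted p = 0.0538). With library totals alone FN1, LUM, FAP and TWIST1 passed as higher, FN1 at an edgeR adjusted p of 0.010. TWIST1 also passed without FB replicate 3, Trog replicate 1 or TrogGW replicate 1 or 3 (0.0347, 0.0148, 0.0187 and 0.0372), in the fit of FB and Trog alone (0.0318), with DESeq2 (0.0383) and with a replicate block (0.0252). LUM also passed without TrogGW replicate 1 or 4 (0.0176 and 0.0336) and in the fit of FB and Trog alone (0.00248).

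**Figure D2:**
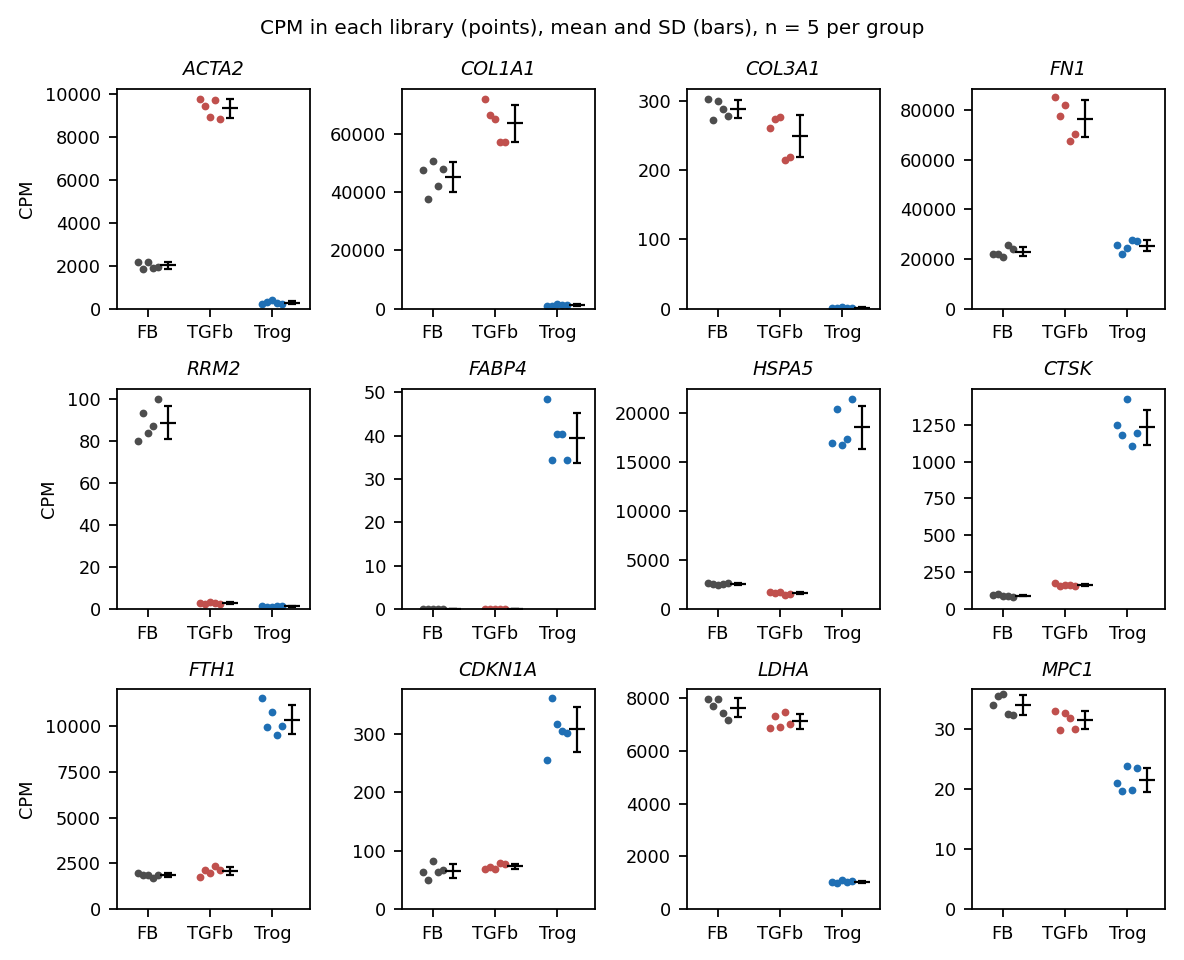
CPM of 12 genes in each of the 5 libraries of FB, TGFb and Trog (points), with the mean and SD beside them; every vertical axis starts at 0 and has its own scale. ACTA2, COL1A1 and FN1 are highest in TGFb, only FN1 has overlapping FB and Trog points, and HSPA5, CTSK, FTH1, CDKN1A and FABP4 are highest in Trog.

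Genes of the adhesion and stress fibre machinery that links matrix to the cytoskeleton were mostly lower. In that list 17 of 24 tested members fell and 4 rose, with a median log2 fold change of -0.88. FLNA, filamin A, which crosslinks actin, fell from 10030.1 ± 1028 to 1938 ± 164 CPM, and ACTN1, an alpha-actinin, from 2319.8 ± 69.4 to 665 ± 35.6 CPM. ILK, a kinase at integrin tails, and ZYX, zyxin, changed by -1.75 ± 0.05 and -1.46 ± 0.06. ACTN4, a second alpha-actinin, changed by -1.47 ± 0.07. All 5 had edgeR adjusted p-values of at most 2.59e-17. Integrins of the list were split, as 3 of 8 tested rose, 4 fell and ITGA11, named after its values were seen, did not pass the test (0.03 ± 0.09, edgeR adjusted p = 0.743, but 3.89e-04 with library totals alone). ITGAV rose from 185 ± 17.4 to 636 ± 61.2 CPM, ITGA2 from 7.43 ± 0.674 to 36.5 ± 6.39 CPM, and ITGB5 by 0.51 ± 0.05.

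Targets of YAP and TAZ, transcription cofactors that report stiffness and tension, were lower while the genes of the cofactors themselves were slightly higher. In the YAP list 15 of 21 tested members fell and 3 rose (1 with all 25 libraries), with a median log2 fold change of -0.67. ANKRD1, a classical target, was at 238, 289, 248, 263 and 256 CPM in FB and 0.801, 0.837, 4.08, 2.01 and 0.381 CPM in Trog. All FB libraries lay above all Trog libraries (log2 fold change -7.29 ± 0.24, edgeR adjusted p = 3.73e-20), and in TGFb the mean was 1938 CPM. AXL, a receptor tyrosine kinase, fell from 2547 ± 155 to 516 ± 22.3 CPM. DLC1 and ARHGAP29, both inhibitors of small GTPases, changed by -2.11 ± 0.06 and -1.07 ± 0.05. YAP1 itself rose by 0.40 ± 0.05 and WWTR1 (TAZ) by 0.45 ± 0.05 (edgeR adjusted p = 1.79e-07 and 1.55e-09). Both calls were lost when all 25 libraries were fitted together (edgeR adjusted p = 0.0992 and 0.123), with the same fold changes, and kept without UK-5099 replicate 5 (1.36e-07 and 6.34e-10).

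The TGF-beta pathway list was split. Of its 24 tested members 12 fell and 11 rose, with a median of -0.17, and with scaling by library totals alone 10 fell and 12 rose. Among ligands, TGFB2 fell from 168 ± 12.9 to 25.3 ± 2.36 CPM (log2 fold change -2.73 ± 0.07, edgeR adjusted p = 1.39e-22). Among receptors, TGFBR3 (betaglycan), which presents ligand, rose from 18.2 ± 1.71 to 60.1 ± 3.97 CPM. The inhibitory SMADs, which dampen signalling, were lower: SMAD7 by 1.03 and SMAD6 by 1.86 on the log2 scale. TSC22D1, a TGF-beta stimulated transcription regulator, rose by 1.37 ± 0.05.

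Of the bone morphogenetic protein (BMP) list 11 of 20 tested members fell and 6 rose, with a median log2 fold change of -1.11. The secreted BMP antagonists FST and NOG were lower, with FST (follistatin) going from 59.1 ± 3.22 to 6.96 ± 1.76 CPM and NOG (noggin) from 2.89 to 0.134 CPM. ATOH8, a target of BMP signalling, fell from 5.91 ± 0.688 to 0.345 ± 0.218 CPM and was already at 0.393 CPM in TGFb. The receptor BMPR1A rose from 27 ± 2.7 to 45.1 ± 2.72 CPM, and the ligand BMP2 from 1.02 ± 0.253 to 3.94 ± 0.664 CPM. The largest edgeR adjusted p of these 5 was 1.51e-08. ID4, an inhibitor of helix-loop-helix factors, rose by 0.95 ± 0.10.

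Keratocyte genes did not move as a block. Across keratocyte genes and stromal proteoglycans, 8 of 15 tested members fell and 4 rose, with a median log2 fold change of -0.50. KERA, which encodes keratocan, was not analysed here. Decorin (DCN), a small proteoglycan that binds collagen and TGF-beta, was at 387, 392, 389, 382 and 354 CPM in FB and 644, 581, 671, 568 and 538 CPM in Trog. All Trog libraries lay above all FB libraries (log2 fold change 0.66 ± 0.08, edgeR adjusted p = 1.99e-08), close to the 605 ± 35.7 CPM of TGFb. PODN, podocan, rose from 4.86 ± 0.579 to 14.8 ± 1.16 CPM, and CRYAB, a small heat shock protein of the lens and cornea, by 0.52 ± 0.08 (edgeR adjusted p = 6.06e-07, but 0.075 in the fit of all 25 libraries and 2.18e-07 without UK-5099 replicate 5). ASPN and OGN, relatives of decorin, fell from 11.8 to 0.583 CPM and from 1.94 to 0.0914 CPM. PRELP, a leucine-rich matrix proteoglycan, fell from 473 ± 34 to 204 ± 38.5 CPM. ALDH1A3, an aldehyde dehydrogenase that makes retinoic acid, changed by -1.29 ± 0.09.

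Matrix-degrading enzymes divided by gene. Across metalloproteinases and their inhibitors, 10 of 19 tested members fell and 8 rose, with a median log2 fold change of -0.24, and with library totals alone 9 rose and 7 fell. MMP14, a membrane collagenase that activates MMP2, was at 336, 339, 347, 367 and 368 CPM in FB and 2000.2, 1751, 2049, 1928 and 1864 CPM in Trog. The groups were well apart (log2 fold change 2.45 ± 0.06, edgeR adjusted p = 3.02e-22). MMP2, a gelatinase, rose from 1915 ± 92.9 to 4146 ± 230.1 CPM. ADAMTS5 and ADAMTS1, which cut the proteoglycans aggrecan and versican, rose from 1.69 ± 0.222 to 121 ± 19.3 CPM and from 17.4 ± 1.13 to 97.4 ± 12 CPM. SERPINE2, an inhibitor of thrombin and plasminogen activators, rose from 2185 ± 43.1 to 6818 ± 324 CPM. ADAM12, ADAM19 and MMP19 fell by 1.60, 0.94 and 1.65 on the log2 scale. For these 7 the edgeR adjusted p was at most 1.77e-11. MMP1, MMP9 and MMP13 had too few counts to be tested.

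Genes of DNA replication and mitosis were lower, and the mitotic list had the lowest median of the 34 lists. In the S phase list 30 of 33 tested members fell and 1 rose (3 with library totals alone), with a median log2 fold change of -1.61. For G2 and mitosis 33 of 35 tested members fell and 0 rose (1 with library totals alone), with a median of -3.48. RRM2, the subunit of ribonucleotide reductase that is made for DNA synthesis, was at 80.0, 93.6, 83.7, 87.2 and 100.1 CPM in FB and 1.51, 0.956, 1.18, 1.31 and 1.38 CPM in Trog. No Trog library reached 2 CPM (log2 fold change -6.13 ± 0.13, edgeR adjusted p = 3.33e-24). TK1, thymidine kinase, fell from 51.7 ± 3.87 to 0.535 ± 0.183 CPM, and the replicative helicase subunits MCM4 and MCM5 from 93.8 ± 5.81 to 10.3 ± 0.814 CPM and from 68.5 ± 4.86 to 2.58 ± 0.727 CPM. Among mitotic genes, KIF20A, a kinesin of the dividing cell, had 2401 counts over the FB libraries and 0 over the Trog libraries, at least 1007-fold lower, taking 3 counts over the group as the floor. CDC20, an activator of the anaphase-promoting complex, fell from 30.1 ± 2.41 to 0.0343 ± 0.0355 CPM. The cyclins CCNA2 and CCNB2 fell from 24.4 ± 3.18 to 0.237 ± 0.13 CPM and from 12.2 ± 0.993 to 0.102 ± 0.113 CPM. ANLN, the cytokinesis protein anillin, was still at 6.88 ± 0.523 CPM in Trog, against 123 ± 14.6 CPM in FB. Across these genes the edgeR adjusted p was at most 5.13e-19. They were already low at day 2 in TGFb, where RRM2 was at 2.81 ± 0.494 CPM, TK1 at 5.19 ± 0.908 CPM and CDC20 at 2.1 ± 0.645 CPM. CCNE1, the G1/S cyclin, was the 1 S phase member that rose (0.87 ± 0.11). FB, described as quiescent in the labels, gave both lists their highest share of counts among FB, TGFb, Trog and TrogGW. The mitotic list took 0.0955% in FB, 0.0201% in TGFb, 0.0290% in Trog and 0.0365% in TrogGW. In the same order the S phase list took 0.146%, 0.0398%, 0.0660% and 0.0777%. These and the other list shares are of library totals, without TMM scaling, so the order of groups can differ from that in CPM. With TMM scaling the median log2 fold change against FB of the mitotic list was -2.57 in TGFb and -3.48 in Trog. For the S phase list it was -1.89 and -1.61.

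Inhibitors of the cell cycle and genes of damage-induced arrest leaned the other way, since 11 of 18 tested members rose and 7 fell (4 with library totals alone), with a median log2 fold change of 0.59. CDKN1A, the cyclin-dependent kinase inhibitor p21, was at 63.6, 50.5, 82.5, 63.6 and 67.1 CPM in FB and 255, 361, 316, 305 and 301 CPM in Trog. Each Trog library lay above each FB library (log2 fold change 2.23 ± 0.10, edgeR adjusted p = 1.37e-17), and at day 2 the mean was 73.1 ± 4.74 CPM. ZMAT3, an RNA-binding zinc finger protein, rose from 18.1 ± 1.82 to 85.9 ± 3.58 CPM. RRM2B, the damage-induced form of the ribonucleotide reductase subunit, rose from 97.4 ± 7.58 to 268 ± 21 CPM, the opposite of RRM2. MDM2, a ubiquitin ligase, rose by 0.98 ± 0.05. CCND1, cyclin D1, fell from 53.6 ± 6.75 to 12.7 ± 0.87 CPM. Here the edgeR adjusted p was at most 1.37e-16.

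**Figure D3:**
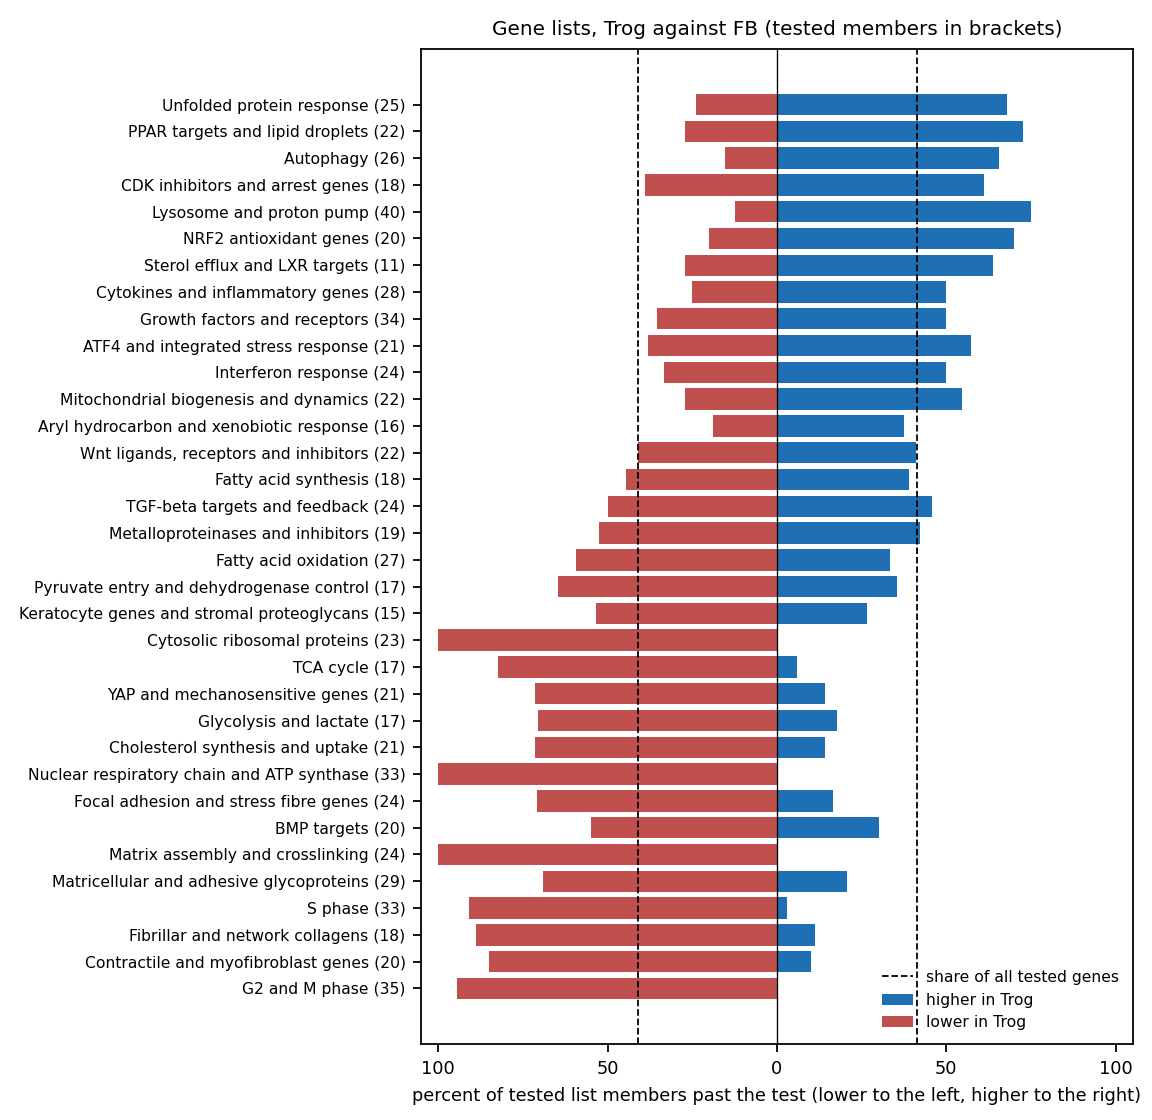
For each of 34 gene lists, the percent of tested members that rose in Trog against FB (blue, to the right) and that fell (red, to the left), ordered by the median log2 fold change of the list; dashed lines mark the shares of all tested genes, 41.3% and 41.0%. All tested members of the crosslinking, respiratory chain and ribosomal lists fell (22, 29 and 16 of them with library totals alone), and the unfolded protein response and PPAR lists have the highest medians.

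Genes that PPAR receptors are known to control were more often higher than lower, although the gene of the drug's receptor had almost no counts. PPARG had 3 counts over the FB libraries and 0 over the Trog libraries and was not tested. A count of 0 allows a level of up to 0.0254 CPM in Trog, that of 3 counts over the group. Of PPAR targets and lipid droplet genes, 16 of 22 tested members rose and 6 fell, with a median log2 fold change of 0.83. FABP4, the fatty acid binding protein of fat cells and macrophages and a direct PPAR-gamma target, had no count in FB or TGFb and stood at 48.4, 34.3, 40.3, 40.4 and 34.3 CPM in Trog. This was at least 1238-fold higher than FB (edgeR adjusted p = 7.12e-17). With GW9662 the level was 5.0 ± 1.13 CPM, below every Trog library (log2 fold change 2.99 ± 0.13, edgeR adjusted p = 2.61e-13). ANGPTL4, a secreted inhibitor of lipoprotein lipase, was at 2.35, 1.67, 2.82, 2.17 and 2.73 CPM in FB and 46.9, 57, 68.9, 50.5 and 43 CPM in Trog. The groups did not overlap (log2 fold change 4.51 ± 0.16, edgeR adjusted p = 3.38e-19), and TrogGW was at 22.9 ± 4.69 CPM. DGAT2, which makes triglyceride, rose from 4.19 ± 0.322 to 67.4 ± 6.46 CPM, and ACSL1, which activates fatty acids, from 90.0 ± 2.23 to 342 ± 12.7 CPM. CPT1A, the gate of fatty acids into mitochondria, rose from 123 ± 5.39 to 222 ± 7.45 CPM. PDK4, a kinase that switches off pyruvate dehydrogenase, rose from 0.045 ± 0.0254 to 4.15 ± 0.829 CPM.

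Not all of this list went with FABP4. FABP3, the fatty acid binding protein of heart muscle, fell from 457 ± 21.9 to 32.8 ± 6.35 CPM (log2 fold change -3.80 ± 0.11, edgeR adjusted p = 4.63e-21) after 1052 ± 71.5 CPM in TGFb. UCP2, a mitochondrial carrier of the uncoupling protein family, fell from 19.7 ± 1.81 to 0.276 ± 0.0603 CPM and was already at 0.999 CPM at day 2. Between Trog and TrogGW, 11 of the 22 tested members were higher in Trog and 7 were lower, while 71.8% of all tested genes differed between these groups (35.5% higher and 36.4% lower in Trog). DGAT2, ACSL1 and ANGPTL4 were higher in Trog than in TrogGW, with log2 fold changes of 0.42 ± 0.07, 0.63 ± 0.04 and 1.22 ± 0.12. PDK4 was at 3.85 ± 0.548 CPM in TrogGW and did not differ by the test (edgeR adjusted p = 0.531).

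Enzymes of fatty acid oxidation beyond CPT1A were more often lower. In that list 16 of 27 tested members fell and 9 rose, with a median log2 fold change of -0.38. HADHA, part of the trifunctional protein that carries out the later steps of each cycle, fell from 235 ± 6.51 to 124 ± 4.49 CPM, and HADH from 49.1 ± 1.91 to 20.2 ± 1.11 CPM. EHHADH and ACAA1, peroxisomal enzymes, changed by -1.76 ± 0.07 and -1.46 ± 0.06, and CPT2, which acts after CPT1A, by -1.16 ± 0.06. CPT1C, a relative of CPT1A, rose from 5.91 ± 0.696 to 32.7 ± 2.2 CPM. These 6 had edgeR adjusted p-values of at most 5.60e-16. Fatty acid synthesis was divided, with 8 of 18 tested members lower and 7 higher (6 and 10 with library totals alone, and 3 higher with all 25 libraries). The elongase ELOVL6 fell from 22.4 ± 2.4 to 3.9 ± 0.592 CPM and FADS3, a relative of the fatty acid desaturases, from 249.6 ± 14.7 to 63.3 ± 6.37 CPM. GPAM, the first enzyme of glycerolipid synthesis, rose by 0.97 ± 0.05.

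Cholesterol synthesis genes were lower and several genes of sterol export were higher. In the synthesis list 15 of 21 tested members fell and 3 rose (6 with library totals alone), with a median log2 fold change of -0.85. SQLE, squalene epoxidase, was at 219, 258, 247, 252 and 249 CPM in FB and 78.9, 85.6, 82.9, 88.7 and 85.8 CPM in Trog. The groups did not overlap (log2 fold change -1.54 ± 0.07, edgeR adjusted p = 8.95e-18), and the mean in TGFb was 449 CPM. LSS, which closes the sterol rings, fell from 263 ± 18.5 to 61.7 ± 4.75 CPM, and MVD, of the mevalonate pathway, from 72.8 ± 9.83 to 21.9 ± 4.7 CPM. INSIG1, which holds the sterol sensor in the endoplasmic reticulum, rose from 74.5 ± 6.57 to 147 ± 13 CPM. Among genes of sterol efflux and the LXR receptors 7 of 11 tested members rose and 3 fell, with a median log2 fold change of 0.41. ABCA1, the exporter that loads cholesterol onto lipoproteins, was at 35.5, 27.7, 29, 35.6 and 31.7 CPM in FB and 232, 157, 174, 235 and 168 CPM in Trog. All Trog libraries lay above all FB libraries (log2 fold change 2.60 ± 0.13, edgeR adjusted p = 3.04e-16). NPC1 and NPC2, which move cholesterol out of lysosomes, rose from 97.2 ± 4.56 to 462 ± 26.7 CPM and from 160.0 ± 7.03 to 336 ± 23.7 CPM. SCARB1, a lipoprotein receptor, fell from 249.6 ± 15.4 to 106 ± 5.04 CPM and was at 446 ± 96.7 CPM in TrogGW. The largest edgeR adjusted p of the genes named without one was 2.00e-09.

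Glycolytic genes were lower. In the glycolysis list 12 of 17 tested members fell and 3 rose (5 with library totals alone), with a median log2 fold change of -0.69. LDHA, which turns pyruvate into lactate, was at 7975, 7686, 7955, 7428 and 7161 CPM in FB and 1016, 986, 1089, 1046 and 1053 CPM in Trog. Its groups lay far apart (log2 fold change -2.88 ± 0.07, edgeR adjusted p = 1.19e-22), while TGFb was at 7117 ± 277 CPM. ENO1, enolase, fell from 7830.2 ± 486 to 2388 ± 159.6 CPM and TPI1, triosephosphate isomerase, from 2399.6 ± 115 to 427 ± 25.3 CPM. SLC16A3, the lactate exporter MCT4, fell from 237 ± 29.6 to 61.7 ± 7.32 CPM. These 3 had edgeR adjusted p-values of at most 7.81e-17. PFKFB4, a regulator of glycolytic flux, rose from 1.09 ± 0.31 to 5.32 ± 0.764 CPM. The list took 2.76% ± 0.118 of all counts in FB and 1.12% ± 0.0297 in Trog, and PKM was not analysed here.

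Both subunits of the mitochondrial pyruvate carrier were lower. MPC1 was at 34, 35.5, 35.9, 32.6 and 32.3 CPM in FB and 21, 19.7, 23.8, 19.9 and 23.5 CPM in Trog, and MPC2 at 66, 68.8, 68.6, 63.8 and 65.5 CPM and 36.6, 41.9, 44.5, 37.6 and 44.8 CPM. For both genes the highest Trog library lay below the lowest FB library. The log2 fold changes were -0.66 ± 0.07 (edgeR adjusted p = 6.86e-10) and -0.70 ± 0.06 (edgeR adjusted p = 5.91e-12). The call of MPC2 was lost in the fit of all 25 libraries (edgeR adjusted p = 0.0819), with a fold change of -0.69, and kept without UK-5099 replicate 5 (5.00e-13). In TrogGW, MPC1 was at 22 ± 1.88 CPM and MPC2 at 33.1 ± 1.32 CPM. Across pyruvate entry genes, 11 of 17 tested members fell and 6 rose, with a median log2 fold change of -0.46. DLAT and PDHB, subunits of the pyruvate dehydrogenase complex, fell from 52 ± 1.37 to 14.7 ± 2.12 CPM and from 73.7 ± 4.14 to 49.8 ± 0.727 CPM. PC, pyruvate carboxylase, which feeds pyruvate into the cycle by the other route, rose from 20.9 ± 1.82 to 47.7 ± 2.73 CPM, and GPT2, an alanine aminotransferase, by 0.57 ± 0.07. The edgeR adjusted p-values of these 4 were at most 5.05e-08.

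Mitochondrial energy genes were mostly lower. Of the genes of the tricarboxylic acid (TCA) cycle that were listed, 14 of 17 tested members fell and 1 rose, with a median log2 fold change of -0.61. MDH2 and FH, which catalyse neighbouring steps, fell from 281 ± 14.8 to 127 ± 6.7 CPM and from 135 ± 5.66 to 69.6 ± 3.58 CPM. IDH1, the cytosolic isocitrate dehydrogenase, was the member that rose (0.89 ± 0.06). All 33 tested nuclear genes of the respiratory chain and ATP synthase fell, with log2 fold changes from -1.59 to -0.16 and a median of -0.86. ATP5F1A, the alpha subunit of ATP synthase, was at 666, 684, 689, 674 and 699.8 CPM in FB and 226, 225, 239, 215 and 229 CPM in Trog. The groups did not overlap (log2 fold change -1.59 ± 0.05, edgeR adjusted p = 2.14e-20). UQCRC2, of complex III, fell from 187 ± 8.72 to 94.6 ± 7.73 CPM. The 23 tested ribosomal protein genes all fell too (median -0.56), RPS2 by 1.26 and RPL3 by 1.29 on the log2 scale. Only 23 of 45 listed ribosomal genes and 33 of 52 listed respiratory chain genes were analysed here. With library totals alone, which move the median of all genes up by 0.31, 16 ribosomal, 29 respiratory chain and 11 TCA members fell and 0, 2 and 4 rose. In the fit of all 25 libraries 7 ribosomal members fell, and 23 without UK-5099 replicate 5.

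In the list of mitochondrial biogenesis and dynamics, 12 of 22 tested members rose and 6 fell, with a median log2 fold change of 0.21. With all 25 libraries 1 fell, and with library totals alone 2 fell. SOD2, the mitochondrial superoxide dismutase, was at 28.9, 28.4, 30.4, 26.6 and 26.6 CPM in FB and 572, 417, 499.6, 537 and 397 CPM in Trog. It was far above FB in each Trog library (log2 fold change 4.10 ± 0.10, edgeR adjusted p = 6.35e-23). PINK1, a kinase that marks damaged mitochondria, rose from 45.4 ± 4.67 to 113 ± 9.72 CPM, and PPARGC1B, a coactivator of mitochondrial genes, from 2.95 ± 0.345 to 7.76 ± 1.29 CPM. LONP1 and HSPE1, a mitochondrial protease and a chaperonin partner, changed by -0.83 ± 0.05 and -0.71 ± 0.05. The call of HSPE1 was lost in the fit of all 25 libraries (edgeR adjusted p = 0.0976) and kept without UK-5099 replicate 5 (1.54e-13).

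**Figure D4:**
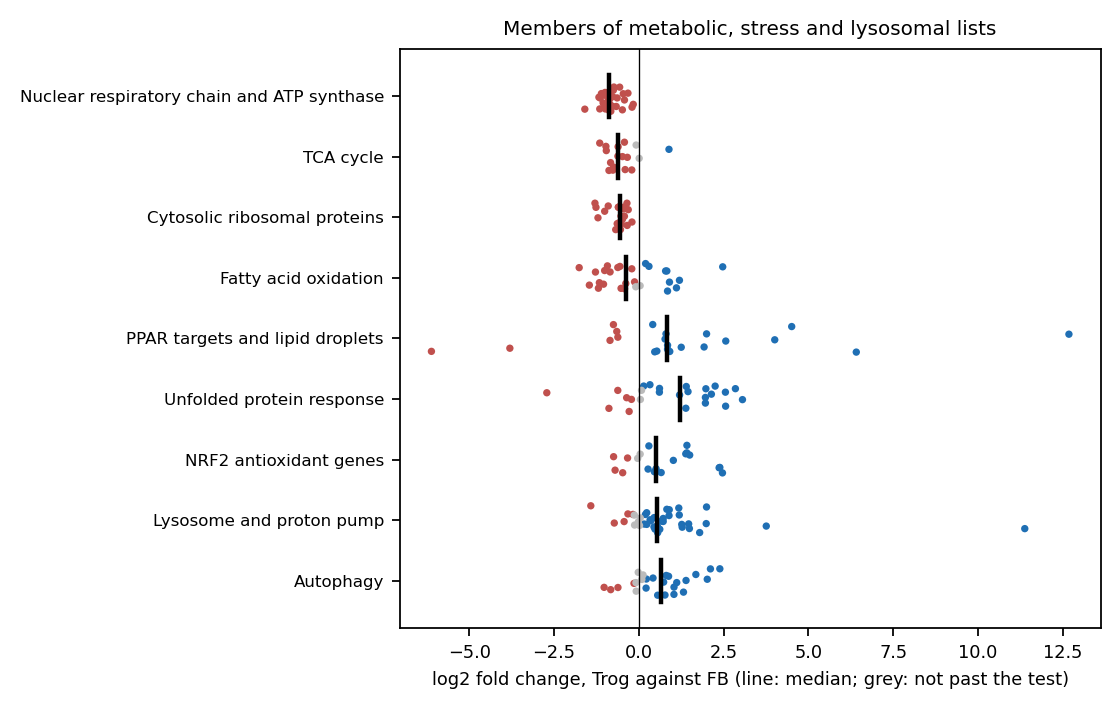
Log2 fold change in Trog against FB of each tested member of 9 lists (points: blue rose, red fell, grey did not pass the test) and the median of the list (black line). Respiratory chain and ribosomal members lie left of 0, lysosomal and autophagy members mostly right of it, and FABP4 and ATP6V0D2 are the points farthest right.

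Genes of the unfolded protein response, which expands the folding capacity of the endoplasmic reticulum, had the highest median of the 34 lists. In that list 17 of 25 tested members rose and 6 fell (3 with library totals alone), with a median log2 fold change of 1.20, and the list took 1.3% ± 0.0312 of all counts in FB and 4.74% ± 0.509 in Trog. HSPA5 (BiP), its main chaperone, was at 2626, 2538, 2456, 2579 and 2699 CPM in FB and 16962, 20404, 16765, 17328 and 21504 CPM in Trog. Every Trog library was several times above every FB library (log2 fold change 2.85 ± 0.13, edgeR adjusted p = 3.00e-17). TGFb was at 1629 ± 132 CPM and TrogGW at 9085 ± 2268 CPM. HSP90B1, the chaperone GRP94, rose from 1638 ± 63.2 to 7229 ± 1091 CPM. HERPUD1 and EDEM1, of the degradation branch, rose as well, HERPUD1 from 289 ± 4.05 to 1695 ± 269 CPM and EDEM1 from 49.5 ± 2.53 to 292 ± 18.8 CPM. The stress sensor ERN1 (IRE1) and the co-chaperone DNAJB9 rose by 1.98 ± 0.06 and 2.25 ± 0.07, and CRELD2 by 3.06 ± 0.11. The edgeR adjusted p-values of these 6 were at most 5.39e-17. XBP1, whose transcript IRE1 splices, fell from 824 ± 27.7 to 536 ± 46.2 CPM, but these counts do not separate its splice forms. CREB3L1, a membrane-bound factor that drives collagen genes, fell from 492 ± 30.6 to 75.1 ± 4.91 CPM (log2 fold change -2.71 ± 0.05, edgeR adjusted p = 2.00e-24).

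Targets of ATF4, the factor of the integrated stress response, changed in both directions, with 12 of 21 tested members higher and 8 lower. SLC7A11, the cystine importer, was at 143, 135, 142, 189.7 and 137 CPM in FB and 878, 629, 735, 865 and 749 CPM in Trog (log2 fold change 2.37 ± 0.10, edgeR adjusted p = 5.17e-18), and its partner chain SLC3A2 went from 117 ± 8.06 to 548 ± 25.7 CPM. DDIT3 (CHOP) and ATF3, transcription factors of stressed cells, rose from 35.6 ± 5.05 to 176 ± 54.1 CPM and from 23.4 ± 1.78 to 102 ± 19.5 CPM. PSPH, SHMT2 and ASNS, which make serine, glycine and asparagine, were lower: PSPH fell from 146 ± 3.03 to 33.4 ± 2.12 CPM, SHMT2 from 911 ± 23.8 to 259 ± 12.5 CPM and ASNS from 784 ± 19.9 to 269 ± 6.72 CPM. The largest edgeR adjusted p among these was 1.36e-13.

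In the list of NRF2 targets, which defend against oxidants, 14 of 20 tested members rose and 4 fell, with a median log2 fold change of 0.51. FTH1, the iron-storing ferritin heavy chain, was at 1974, 1889, 1878, 1718 and 1885 CPM in FB and 11512, 9959, 10749.5, 9497 and 9969.8 CPM in Trog. The 2 sets of libraries lay far apart (log2 fold change 2.47 ± 0.09, edgeR adjusted p = 1.26e-19). SQSTM1 (p62), which carries proteins to autophagosomes, rose from 344 ± 18.7 to 1805 ± 91.4 CPM. PRDX1, a peroxiredoxin, rose from 988 ± 97.7 to 2638 ± 336 CPM, and GSR and GCLC, which recycle and make glutathione, from 60.2 ± 4.85 to 161 ± 9.83 CPM and from 36.3 ± 1.56 to 95 ± 4.17 CPM. GPX4, the peroxidase of membrane lipids, fell from 225 ± 9.3 to 134 ± 10.7 CPM. All of these had edgeR adjusted p-values of at most 5.39e-11. In TrogGW, SQSTM1 was at 5999 ± 1061 CPM and GCLC at 331 ± 38.1 CPM, both above Trog (log2 fold changes of Trog against TrogGW -1.73 ± 0.09 and -1.80 ± 0.06). NFE2L1, a factor related to NRF2 that controls proteasome genes, rose from 598 ± 5.33 to 2687 ± 98 CPM. HMOX1 and NQO1 were not analysed here.

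Lysosomal genes were mostly higher. Across lysosome and proton pump genes, 30 of 40 tested members rose and 5 fell (3 with library totals alone), with a median log2 fold change of 0.54. CTSK, cathepsin K, a protease that cuts collagen, was at 93, 98.7, 90.4, 89.7 and 83.3 CPM in FB and 1250.5, 1179, 1427, 1108 and 1197 CPM in Trog. Every Trog library lay more than 10-fold above the highest FB library (log2 fold change 3.76 ± 0.10, edgeR adjusted p = 2.12e-22). TGFb was at 163 ± 9.55 CPM and TrogGW at 403 ± 69.2 CPM. ATP6V0D2, a proton pump subunit known from osteoclasts and macrophages, had 1 count over the FB libraries and was at 42.7, 46.1, 32.8, 45.6 and 55.1 CPM in Trog. The ratio of Trog to FB was 4159, with a 95% counting interval from 746 to 164286. Its widely expressed relative ATP6V0D1 fell from 109 ± 5.27 to 65.9 ± 2.88 CPM. ATP6V0B and ATP6V0A2, other subunits of the pump's membrane part, rose from 40.4 ± 1.73 to 161 ± 20.1 CPM and from 39.2 ± 2.56 to 89.7 ± 5.01 CPM. MCOLN1, a calcium channel of the lysosome, rose from 17.2 ± 1.06 to 68.5 ± 5.93 CPM. LAMP1, a membrane protein used as a lysosome marker, fell by 0.43 and CTSZ by 1.41 on the log2 scale. These 6 had edgeR adjusted p-values of at most 5.00e-08. Summed immune markers, whose values are given above, were higher in Trog too. PTPRC, AIF1, TYROBP and CD163 were at 0, while each of the 4 tested immune markers rose. The part of immune cells in the lysosomal values was not tested.

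Autophagy genes were mostly higher as well: 17 of 26 tested members rose and 4 fell (2 with library totals alone), with a median log2 fold change of 0.65. ULK2, a kinase that starts autophagy, was at 157, 150.0, 150.1, 152 and 149.6 CPM in FB and 661, 610.2, 589.7, 628 and 588 CPM in Trog. The groups did not overlap (log2 fold change 2.02 ± 0.05, edgeR adjusted p = 4.96e-22). Its relative ULK1 rose from 21.8 ± 3.02 to 94.4 ± 7.19 CPM. The cargo receptors NBR1 and OPTN rose from 326 ± 10.7 to 1048 ± 46.3 CPM and from 113 ± 5.23 to 298 ± 15.4 CPM. ATG5, which conjugates ATG8 proteins to membranes, and GABARAP, one of those proteins, fell by 0.83 and 0.61 on the log2 scale. These 5 had edgeR adjusted p-values of at most 1.31e-09. BECN1 (beclin 1) fell by only 0.14 (edgeR adjusted p = 0.0093), its groups overlapped, and its sign turned with library totals alone (0.17).

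Inflammatory genes were mixed. Of cytokines and related genes, 14 of 28 tested members rose and 7 fell, with a median log2 fold change of 0.36. PTGS2, the inducible cyclooxygenase, was at 5.63, 3.97, 4.01, 4.78 and 5.18 CPM in FB and 48.1, 37.7, 37.1, 54.2 and 51.7 CPM in Trog. Trog lay above FB (log2 fold change 3.28 ± 0.15, edgeR adjusted p = 7.22e-17) but below the 117 ± 15.9 CPM of TGFb. CXCR4, a chemokine receptor, rose from 0.121 ± 0.082 to 18 ± 2.57 CPM, VCAM1, an adhesion molecule for leukocytes, from 0.126 ± 0.0489 to 10.0 ± 2.47 CPM, and CSF1, a growth factor of macrophages, from 123 ± 5.17 to 343 ± 7.41 CPM. IL33, an alarmin stored in nuclei, was at 58.4, 65.8, 57.3, 68.7 and 56.3 CPM in FB and 3.56, 3.31, 3.45, 5.06 and 2.91 CPM in Trog (log2 fold change -4.06 ± 0.10, edgeR adjusted p = 6.35e-23). IL34, a second ligand of the CSF1 receptor, and ACKR3, a scavenging chemokine receptor, fell from 58.5 ± 4.4 to 7.25 ± 0.826 CPM and from 57.7 ± 6.08 to 5.44 ± 0.821 CPM. Where none is given, the edgeR adjusted p was at most 1.19e-11. Of the interferon list 12 of 24 tested members rose and 8 fell (4 with library totals alone), with a median log2 fold change of 0.26. RSAD2 (viperin) had 3 counts over FB and was at 21.2 ± 4.67 CPM in Trog, a ratio of 662 with a 95% counting interval from 226 to 3210.2. IRF1 rose from 23.8 ± 1.59 to 86.8 ± 13.8 CPM, while B2M, which interferon also raises, fell by 0.81 on the log2 scale.

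Growth factor signalling genes changed in both directions, since 17 of 34 tested members rose and 12 fell, with a median log2 fold change of 0.32. The ligand FGF1 was at 1.36, 1.98, 1.9, 1.64 and 1.54 CPM in FB and 15.1, 21.5, 15.6, 15.3 and 15.1 CPM in Trog. Trog was above FB (log2 fold change 3.28 ± 0.15, edgeR adjusted p = 3.70e-17) and above TrogGW, which was at 1.3 ± 0.413 CPM (log2 fold change 3.68 ± 0.15, edgeR adjusted p = 2.35e-17). Among receptors, FGFR2 rose from 7.42 ± 1.02 to 80.5 ± 8.33 CPM and EGFR from 79.8 ± 8.68 to 221 ± 21.1 CPM, while MET, the receptor of hepatocyte growth factor, fell from 301 ± 18 to 153 ± 4.12 CPM. VEGFA and VEGFB, ligands of vascular growth, rose by 1.23 ± 0.07 and 1.52 ± 0.08. The edgeR adjusted p-values of these 5 were at most 5.12e-14. In the Wnt list 9 of 22 tested members rose and 9 fell. DKK2, a secreted Wnt modulator that helps set corneal identity of the ocular surface, was at 1195, 1088, 1183, 1225 and 1189 CPM in FB and 54.9, 61.2, 69.4, 61.7 and 55 CPM in Trog. Its groups lay far apart (log2 fold change -4.28 ± 0.08, edgeR adjusted p = 2.00e-24), and TGFb was at 1248 ± 108 CPM. WNT4 and WNT11, ligands, rose from 0.153 to 2.92 CPM and from 3.29 to 8.19 CPM, and WNT2 fell from 8.97 to 1.45 CPM.

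Genes of xenobiotic metabolism were divided. There 6 of 16 tested members rose, 3 fell and the other 7 did not pass the test. Without Trog replicate 3, 5 fell. ABCB1, the drug export pump, was at 120.4, 127, 114, 134 and 125 CPM in FB and 993, 840.1, 979.9, 954 and 883 CPM in Trog. Every Trog library lay above every FB library (log2 fold change 2.90 ± 0.09, edgeR adjusted p = 3.73e-21), and TrogGW was at 919.9 ± 135 CPM. GSTM3, a glutathione transferase, rose from 54.4 ± 4.32 to 447 ± 58.5 CPM and was at 1649 ± 441 CPM in TrogGW. CYP1B1, a cytochrome linked to congenital glaucoma, fell from 77.5 ± 7.51 to 18.1 ± 4.96 CPM. CYP24A1, which inactivates vitamin D, was at 0.243 and 0.517 CPM with overlapping groups and 26.8 CPM in TrogGW.

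Some of the largest changes fell outside the lists. Among the 12 genes with the largest rise, KNG1, the plasma protein kininogen, had 1 count over FB and 14 ± 1.34 CPM in Trog (ratio 1310.2, 95% counting interval 235 to 51780.4). KIF1A, a motor of axonal transport, was at 1.24, 0.678, 0.921, 0.842 and 0.797 CPM in FB and 159, 165, 148, 168 and 144 CPM in Trog. Its groups lay far apart (log2 fold change 7.46 ± 0.12, edgeR adjusted p = 2.76e-26), and TGFb stood between them at 21.9 ± 2.84 CPM. GJB2, the gap junction protein connexin 26, went from 0.0612 ± 0.0413 to 15.9 ± 0.813 CPM and was at 113 ± 15.4 CPM in TrogGW. VAV3, an activator of small GTPases, rose from 0.373 ± 0.163 to 30.4 ± 3.0 CPM, TNNT2, cardiac troponin T, from 0.705 ± 0.21 to 31.7 ± 4.21 CPM, and UAP1L1 from 1.56 ± 0.493 to 98 ± 10.1 CPM. The 12 largest falls were COL3A1, ANKRD1 and 10 genes of replication or cell division, among them SHCBP1, DIAPH3, CENPF, KIF23 and KIF2C with log2 fold changes from -8.29 to -6.97. Of the genes with many counts that rose at least 2-fold, LRP1, an endocytic receptor, went from 3999.9 ± 424 to 8908 ± 1531 CPM, close to the 9406 ± 1019 CPM of TGFb. SIDT2, a lysosomal membrane protein, fell from 7892 ± 667 to 595 ± 68.2 CPM. The next protein-coding gene after it in the RefSeq table is TAGLN, a smooth muscle gene not analysed here, and whether reads of TAGLN are counted under SIDT2 was not tested.

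Set beside the values at day 2, the genes changed at least 4-fold in both comparisons took several courses. These comparisons share the FB libraries, so only each gene's own values are given. TNC, tenascin C, an adhesion-modulating matrix protein, was at 338, 337, 334, 361 and 380.4 CPM in FB, at 7296 ± 784 CPM in TGFb and at 18.3, 27.5, 50.8, 29.2 and 27 CPM in Trog. It was thus highest at day 2 and lowest at day 5, with log2 fold changes against FB of 4.38 ± 0.22 and -3.52 ± 0.22. ACTC1, POSTN (periostin), EFEMP1 and LMOD1 (leiomodin, an actin nucleator) had the same order, with 4.27, 2.36, 2.60 and 2.27 in TGFb against FB and -3.19, -2.22, -2.50 and -2.11 in Trog against FB. In the same way ELN and ANKRD1, described above, went from 2.35 and 2.90 to -4.93 and -7.29. Among genes low in both were UCP2, described above (-4.30 and -6.11), CDCA7 (-4.38 and -6.05), DDIAS (-4.00 and -6.27) and TCF19 (-4.03 and -4.17). All of these had edgeR adjusted p-values of at most 4.51e-10 in Trog against FB.

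**Figure D5:**
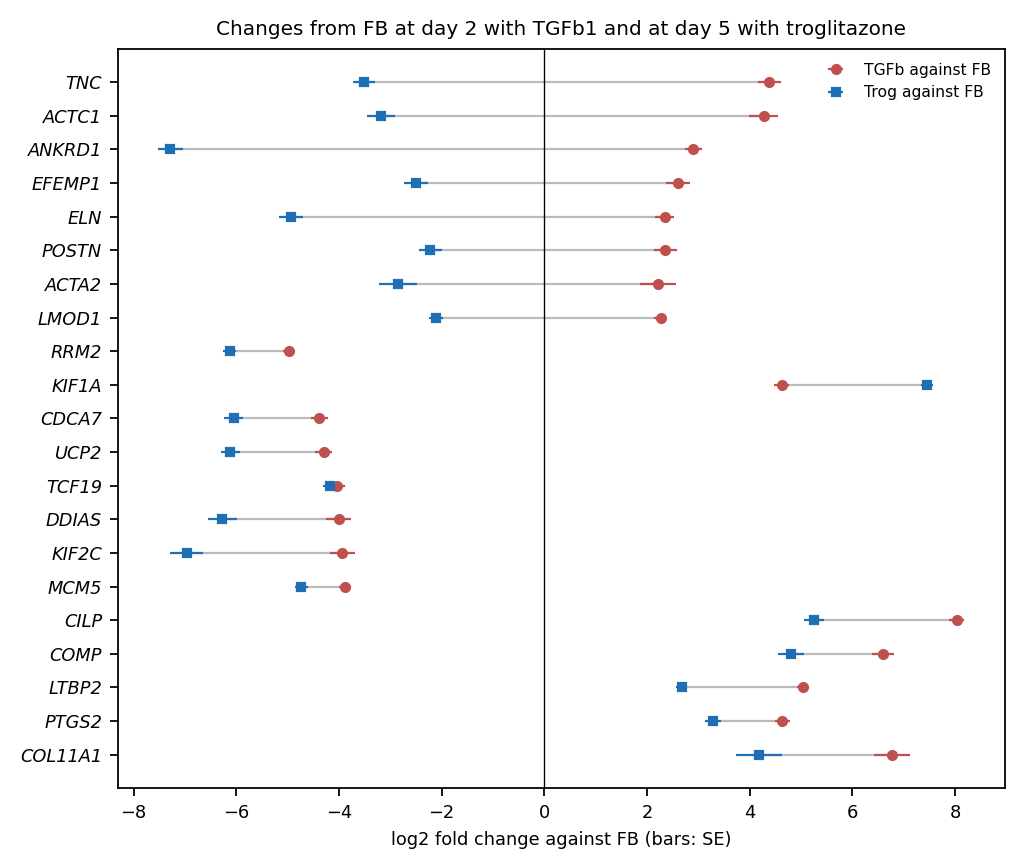
Log2 fold changes against FB with SE, in TGFb at day 2 (red circles) and in Trog at day 5 (blue squares), for 16 genes changed at least 4-fold in both, with at least 10 CPM in the higher group of each comparison and ranked by the smaller change, and 5 genes picked after their values were seen (CILP, COMP, LTBP2, PTGS2 and COL11A1). The first 8 genes lie right of 0 in TGFb and left of 0 in Trog, the cell cycle genes lie left of 0 in both, and the last 5 are above FB in both but lower in Trog than in TGFb.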

How the data were processed

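Raw read counts per gene symbol were deposited by the authors as 1 table per library, each with the same 13949 symbols. Per the labels' protocols, a strand-marking poly(A) kit (TruSeq) was used on 200 ng RNA, with NovaSeq sequencing. Salmon 1.5.2, featureCounts, Subread 2.0.1, STAR 2.7.9a and fastp 0.23.1 are listed in the submitters' processing notes. Genome build, annotation, strand setting and each tool's role are not given in the sources used here.

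Counts were fitted in R 4.3.3 with edgeR 4.0.16 (TMM scaling, filterByExpr with a minimum count of 10 and a minimum total of 15, glmQLFit and glmQLFTest) over 20 libraries of FB, TGFb, Trog and TrogGW, with group as the only term. The 5 libraries with UK-5099 entered only 1 alternative fit whole, and 1 without replicate 5. Benjamini-Hochberg adjustment of p-values ran over 10638 genes, and calls were made at 0.05. The SE of a log2 fold change is its size over the square root of F. The labels' replicate numbers were not used as a block. At 17.5 to 24.2 M counts per library, 1 count over the 5 libraries of a group is about 0.01 CPM. Where a group had no count, a floor of 3 counts over the group was used, and for 1 to 3 counts an exact 95% interval that covers counting error only.

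Of 978 genes in the 34 lists, 819 were in the files. The comparison, the lists and the rule for named genes were chosen with earlier results of these data known. The rule took ACTA2, COL1A1, FABP4, MPC1, MPC2 and PPARG, the 12 largest rises and 12 largest falls among genes without overlap and with 10 CPM or more in 1 group, the 8 with the most counts at least 2-fold higher and 8 lower, up to 5 members of a list in its main direction and 3 against it, and 8 and 8 genes changed at least 4-fold in both Trog and TGFb against FB. Not every gene it selects is described, and some are not reported here. Names outside it are marked or are markers, genes at 0 or paralogs. In the RefSeq gene table (assembly F.catus_Fca126_mat1.0), used only for names and neighbours, 13797 symbols were found. There 41 of the 222 tested genes named overlap another protein-coding gene, among them CTSK, FTH1, HADHA, HSPA5, MPC2, NBR1, PSPH and SQSTM1. Their reads cannot be told apart from the partner's without the strand setting, so these levels are uncertain.

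The code was tested on simulated counts for Trog against FB (10638 genes, of which 10000 passed the filter, among them 193 of the 200 changed ones), where 88 of 100 genes with a 2-fold change and 88 of 100 with a 1.5-fold change were called, as were 14 of 9807 unchanged genes. In the simulation all groups were drawn from the FB means, and only those 200 genes were changed, evenly up and down. Error rates where most genes change, as in Trog against FB, were not tested. Alternatives were DESeq2 1.42.0, limma voom 3.58.1, other scalings, other filters, other sets of libraries, each library left out and a replicate block. Figures were drawn with matplotlib 3.10.9.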

Additional observations from a re-analysis of the deposited data

Results flagged for a closer look

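In 16 of 406 gene and group values tested, 1 library lay far from the other 4 of its group by a test for outliers, and chance alone flags about 1 in 20. Of the 16, 5 were in Trog replicate 3. There LUM was at 349 CPM (205 to 242 in the other 4 Trog libraries), RRM2B at 304 CPM (249 to 264), TGFB1I1 at 27.1 CPM (21.7 to 22.2), CYP1B1 at 26.7 CPM (14.4 to 17.4) and ELN at 9.13 CPM (3.60 to 5.19). In Trog replicate 2, FGF1 was at 21.5 CPM (15.1 to 15.6) and ID4 at 183 CPM (125 to 140). In Trog replicate 4, GABARAP was at 140 CPM (166 to 172) and ULK1 at 107 CPM (89.4 to 93.4). In FB replicate 4, SLC7A11 was at 190 CPM (135 to 143), ITGAV at 215 CPM (174 to 183) and MET at 332 CPM (288 to 300). In FB replicate 1, ATF3 was at 26.5 CPM (22.0 to 23.0) and SQLE at 219 CPM (247 to 258). In FB replicate 2, ACTN4 was at 1350 CPM (1450 to 1490), and in FB replicate 5, DCN was at 354 CPM (382 to 392). Apart from LUM, which was not called, each of these genes stayed called in the same direction when any 1 library was left out.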

How the results depend on the processing

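The count of genes changed in Trog against FB stayed within 1.5 times 8761 under each alternative, from 6838 with all 25 libraries to 9173 with no filter on low counts. DESeq2 gave 8718, limma voom 8743, and the fit of the 10 FB and Trog libraries alone 8492. With all 25 libraries fitted, 4089 genes changed in TGFb against FB (7134 here) and 4620 in Trog against TrogGW (7642 here), and without UK-5099 replicate 5 the counts were 7124, 7735 and, for Trog against FB, 8790. Leaving out 1 library at a time gave 8649 to 8857 changed genes in Trog against FB, 3165 to 3247 changed at least 2-fold, 6866 to 7258 in TGFb against FB and 7415 to 7747 in Trog against TrogGW. Same-numbered FB and Trog libraries did not deviate together (r from -0.06 to 0.12, 1 of 5 best with its own number), and a replicate block called 8745 genes and changed the call of 1 named gene, TWIST1 (edgeR adjusted p = 0.0252, against 0.0538). Library totals alone turned the sign of 183 genes called in both fits. Of the named genes, BECN1 turned (0.17, against -0.14), and it did not pass the test without FB replicate 2 (edgeR adjusted p = 0.0540). CYP24A1 did not pass with limma voom (adjusted p = 0.0711). The cause of these changes was not tested. Genes near 1 CPM or below, such as OGN or WNT4 in 1 group, rest on few counts, and precision there is limited by depth.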

Other observations

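Several gene families outside the lists, picked by symbol after their values were seen, leaned to 1 side in Trog against FB. Of 62 tested genes of the mitochondrial ribosome, 50 fell and 4 rose, with a median log2 fold change of -0.56. The proteasome subunits, which degrade tagged proteins, had 32 of 39 lower and 2 higher (median -0.46). Of 9 genes of the CCT chaperonin, which folds actin and tubulin, 8 fell and 0 rose (edgeR, median -0.64). TIMM and TOMM genes, which import proteins into mitochondria, had 15 of 19 lower (median -0.71), and the splicing factors of the SRSF and HNRNP families 20 of 24 (median -0.56). Of 16 cytosolic tRNA synthetases, 14 fell and 1 rose.

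Other families leaned upward. Of 142 tested ZNF zinc finger genes, most of which encode DNA-binding proteins, 84 rose and 33 fell (median 0.36). Ubiquitin proteases of the USP family had 30 of 41 higher and 8 lower, sorting nexins, which route endosomes, 16 of 24 higher and 6 lower, and the histone demethylases and methyltransferases of the KDM and KMT families 14 of 20 higher and 3 lower. Among all tested genes 41.3% rose and 41.0% fell. With library totals alone the families kept their direction by count, with 34 mitochondrial ribosome genes lower and 9 higher, 20 proteasome genes lower and 8 higher, and 100 ZNF genes higher and 18 lower. Under that scaling 5875 of all 10638 tested genes rose and 3013 fell, so its family counts are to be read against these. These families were chosen for their values, so no test is given.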
